A study of Mus musculus with 4 samples.

Results

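The genes described here encode the subunits of voltage-gated calcium and sodium channels. They were taken as every gene listed in the 4 spatial transcriptomic sections whose symbol is that of a calcium channel pore-forming (Cacna1), alpha2delta (Cacna2d), beta (Cacnb) or gamma (Cacng) subunit, or of a sodium channel pore-forming (Scn with the ending a) or beta (Scn with the ending b) subunit. Of the 22218 genes listed in any section, 39 met this rule, all listed in all 4 sections, and 37 of them are described. The 37 comprised 10 calcium channel pore genes, of which 4 were of the Cav1, 3 of the Cav2 and 3 of the Cav3 family, with 4 alpha2delta, 4 beta and 8 gamma genes, 9 sodium channel pore genes and 2 sodium channel beta genes.

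Voltage-gated sodium channels carry the fast inward current that starts the action potential of neurons and muscle fibres. Voltage-gated calcium channels open on depolarisation and couple it to transmitter release, contraction, secretion and gene transcription. In both families the pore subunit forms the channel by itself, while the accessory subunits set how much of it reaches the membrane and how it opens and closes. Alpha2delta and cytosolic beta subunits associate with the Cav1 and Cav2 pores. Cav3 pores, which open at low voltage, can work without them.

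The sections came from mouse brain organoids, which are neural tissues grown in suspension from pluripotent cells. A single embryonic stem cell line with the genotype CARLIN/Cas9 was used for all groups, at 5000 cells in each well at the start, with embedding in Matrigel, and the tissue was sectioned after 3 months of culture. From day 9 the maturation medium of the groups differed. All-trans retinoic acid (ATRA, which activates all retinoic acid receptors) was given at 1 µM, and BMS753 (an agonist of the alpha receptor) at 1 µM. BMS961 with BMS641 (agonists of the gamma and the beta receptor) was given at 0.1 µM. The remaining group, here called VitaminA, had a B27 supplement containing vitamin A. B27 was listed at 2% for all groups. Each group is 1 section, and several organoids were frozen in a mold before sectioning, so a section may hold more than 1 organoid. There is no replicate of any group, and the doses differ between ligands.

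The sections held 593 spots in ATRA, 469 in BMS753, 365 in BMS961+BMS641 and 552 in VitaminA, and a spot is a small region that may cover several cells. The deposited signal was quantile normalised by the authors within each section, so the sequencing depth behind a spot cannot be read from it. In each spot the lowest values simply increase down the table's list of genes; these are called its lowest class, and a gene was counted as detected in a spot where it lay above that class. The median spot had 3388 genes above it in ATRA, 3330 in BMS753, 4462 in BMS961+BMS641 and 4659 in VitaminA. The level of a gene is its mean signal over the spots of a section, in ppm, the share of the sum over all genes scaled to a total of 1000000. Of 16 pan-neuronal marker genes, the median one was detected in 25.2% of spots in ATRA, 25.7% in BMS753, 37.9% in BMS961+BMS641 and 39.0% in VitaminA. In a section, fewer cells of a type and less RNA per cell cannot be told apart.

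The channel genes were broadly detected in all 4 sections. The median one of the 37 genes was detected in 40.1% of spots in ATRA, 50.3% in BMS753, 58.6% in BMS961+BMS641 and 45.5% in VitaminA. The median over all listed genes was 8.26% in ATRA, 9.38% in BMS753, 12.1% in BMS961+BMS641 and 11.6% in VitaminA. Together the 37 genes held 4444 ppm of the signal in ATRA, 4207 ppm in BMS753, 3886 ppm in BMS961+BMS641 and 3886 ppm in VitaminA, so the sums of the sections were close while single genes differed widely (see the plot of levels by section).

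**Figure D1:**
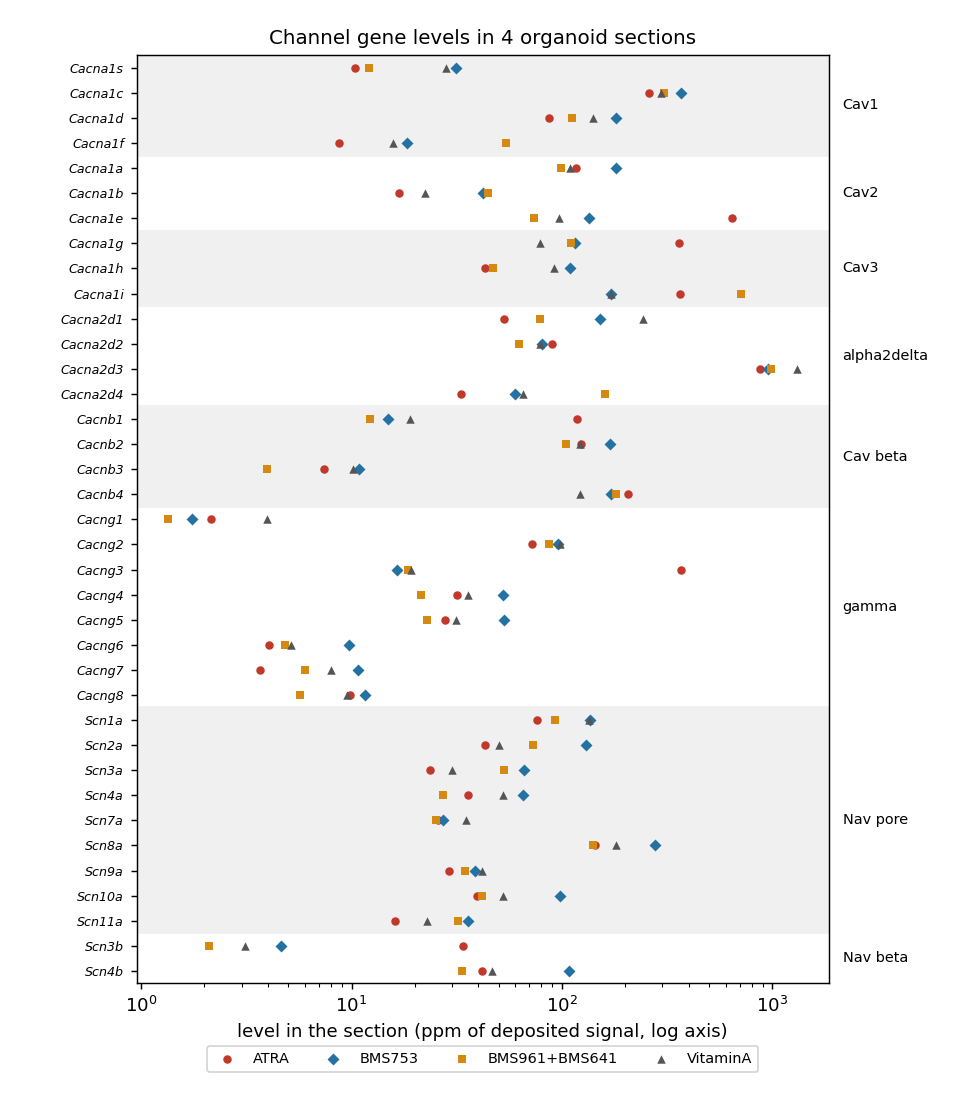
Level of each of the 37 channel genes in the 4 sections, on a logarithmic axis in ppm of the section's signal, grouped by role; each symbol is the mean over the spots of 1 section, without error bars because each group is 1 section. Cacng3, Cacna1e, Cacna1g, Cacnb1 and Scn3b stand apart in ATRA, and Cacna1f and Cacna2d4 in BMS961+BMS641.

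Among the Cav1 pore genes, Cacna1c, which encodes the main L-type pore of heart, smooth muscle and brain, was the most even. Its level was 260.5 ppm in ATRA, 367.7 ppm in BMS753, 306.7 ppm in BMS961+BMS641 and 294.6 ppm in VitaminA, and it was detected in 88.9 to 95.3% of spots. Cacna1d, the L-type pore of pacemaking neurons and inner hair cells, had 86.9 ppm in ATRA, 180.7 ppm in BMS753, 111.9 ppm in BMS961+BMS641 and 140.3 ppm in VitaminA. Its quadrants overlapped between BMS961+BMS641 and VitaminA, while those of BMS753 lay above all others on this uncentred scale. After centring on the median gene, the log2 ratio of BMS753 was 0.06 over VitaminA, 0.33 over ATRA and 0.04 over BMS961+BMS641.
Cacna1s, the pore of skeletal muscle that triggers contraction, had 10.4 ppm in ATRA, 31.3 ppm in BMS753, 12.1 ppm in BMS961+BMS641 and 28.2 ppm in VitaminA. The levels were thus low in ATRA and BMS961+BMS641 and higher in the other two, without overlap of quadrants between the pairs. The marker list of skeletal and cardiac muscle summed to 149.5 ppm over 11 of its 12 genes in ATRA, and over all 12 genes to 337.0 ppm in BMS753, 150.8 ppm in BMS961+BMS641 and 226.6 ppm in VitaminA. The median muscle marker was detected in 7.08% of spots in ATRA, 4.69% in BMS753, 11.5% in BMS961+BMS641 and 9.15% in VitaminA, and no listed muscle marker was undetected in any section; the part of muscle cells in the levels of Cacna1s was not tested.
Cacna1f encodes the L-type pore of photoreceptor synapses. It had 8.68 ppm in ATRA, 18.3 ppm in BMS753, 54.4 ppm in BMS961+BMS641 and 15.7 ppm in VitaminA, and it was detected in 4.22% of spots in ATRA, 8.74% in BMS753, 50.1% in BMS961+BMS641 and 13.6% in VitaminA. BMS961+BMS641 was the one section where it was detected in most spots. In ATRA 53.9% and in BMS753 48.4% of its signal lay in the lowest class, so its level there rests in large part on its place in the table.

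The Cav2 pores are the channels of presynaptic terminals. Cacna1a, the P/Q-type pore, had 116.7 ppm in ATRA, 181.6 ppm in BMS753, 99.1 ppm in BMS961+BMS641 and 109.4 ppm in VitaminA. Cacna1b, the N-type pore, had 16.8 ppm in ATRA, 42.2 ppm in BMS753, 44.5 ppm in BMS961+BMS641 and 22.3 ppm in VitaminA. It was detected in 62.5% of spots in BMS961+BMS641 and in 29.7 to 36.9% in the other sections. Cacna1e encodes the R-type pore, found in dendrites and in endocrine cells. It had 644.4 ppm in ATRA, 133.9 ppm in BMS753, 73.7 ppm in BMS961+BMS641 and 97.2 ppm in VitaminA. The lowest ATRA quadrant, at 605.2 ppm, stood above the highest quadrant of any other section, at 150.0 ppm, and Cacna1e was detected in 96.6% of ATRA spots against 62.3 to 71.2% elsewhere.

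The Cav3 genes encode T-type channels, which support burst firing in thalamic and other neurons. Cacna1g had 359.3 ppm in ATRA, 115.3 ppm in BMS753, 110.6 ppm in BMS961+BMS641 and 78.9 ppm in VitaminA. Cacna1i, a T-type pore found mostly in brain, had 364.0 ppm in ATRA, 171.3 ppm in BMS753, 712.4 ppm in BMS961+BMS641 and 171.6 ppm in VitaminA. The third gene, Cacna1h, ran the other way, with 43.2 ppm in ATRA, 109.3 ppm in BMS753, 47.0 ppm in BMS961+BMS641 and 91.9 ppm in VitaminA. Cacna1g was therefore high in ATRA, Cacna1i high in ATRA and higher still in BMS961+BMS641, and Cacna1h low in both of these sections, with no overlap of quadrants in any of these differences. After centring on the median gene, the log2 ratio of Cacna1h over VitaminA was -0.74 in ATRA and -0.70 in BMS961+BMS641, within a fold of 2.

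The alpha2delta subunits raise the number of channels at the membrane, and those encoded by Cacna2d1 and Cacna2d2 bind gabapentin. Cacna2d3, whose genomic span of 817.8 kb in the RefSeq annotation of GRCm38.p6 is the longest of the 37, had 871.2 ppm in ATRA, 958.1 ppm in BMS753, 987.2 ppm in BMS961+BMS641 and 1315.5 ppm in VitaminA, and it was detected in 96.1 to 99.8% of spots. Cacna2d1 had 52.8 ppm in ATRA, 152.5 ppm in BMS753, 78.3 ppm in BMS961+BMS641 and 242.2 ppm in VitaminA. VitaminA was the section where it was highest, in every quadrant, and it was detected there in 93.5% of spots against 54.6% of ATRA, 74.0% of BMS753 and 73.4% of BMS961+BMS641 spots. Cacna2d2 was even, with 90.2 ppm in ATRA, 80.1 ppm in BMS753, 62.6 ppm in BMS961+BMS641 and 78.8 ppm in VitaminA. Cacna2d4, the alpha2delta partner of the Cacna1f pore in the retina, had 33.3 ppm in ATRA, 59.6 ppm in BMS753, 159.7 ppm in BMS961+BMS641 and 65.3 ppm in VitaminA. It was detected in 86.3% of the BMS961+BMS641 spots, and its lowest quadrant there, at 137.0 ppm, was above every quadrant of the other sections.

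Cacna1f and Cacna2d4 were thus both highest in BMS961+BMS641. The list of 8 photoreceptor markers summed to 63.5 ppm in ATRA, 100.3 ppm in BMS753, 78.6 ppm in BMS961+BMS641 and 173.8 ppm in VitaminA. Its median gene was detected in 7.67% of spots in ATRA, 6.29% in BMS753, 8.90% in BMS961+BMS641 and 5.34% in VitaminA, and none of the 8 was undetected in a section. The markers differed in the section where they were highest. Prph2, a structural protein of the outer segment, made up 105.5 ppm of the VitaminA sum and was detected in 75.5% of VitaminA spots, against 5.12 to 12.3% elsewhere. Pde6b, the rod phosphodiesterase subunit, was detected in 28.5% of BMS961+BMS641 spots and in 8.32 to 13.9% of those elsewhere. Crx, a photoreceptor transcription factor, was detected in 15.2% of spots in ATRA, 6.82% in BMS753, 9.32% in BMS961+BMS641 and 4.89% in VitaminA. The part of photoreceptors in the levels of Cacna1f and Cacna2d4 was not tested.

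The beta subunits bind the pore from the cytosol. Cacnb1, the beta subunit of the skeletal muscle channel that is also found in brain, had 117.9 ppm in ATRA, 14.9 ppm in BMS753, 12.3 ppm in BMS961+BMS641 and 18.9 ppm in VitaminA. It was detected in 66.3% of ATRA spots and in 21.5 to 32.6% of those elsewhere. The part of muscle cells, whose marker levels are given above, in the level of Cacnb1 was not tested. Cacnb4, the beta subunit of cerebellar and thalamic neurons, had 205.2 ppm in ATRA, 171.2 ppm in BMS753, 181.7 ppm in BMS961+BMS641 and 121.5 ppm in VitaminA. Cacnb2, the cardiac beta subunit, had 123.7 ppm in ATRA, 169.0 ppm in BMS753, 104.9 ppm in BMS961+BMS641 and 122.5 ppm in VitaminA. Cacnb3 had 3.95 to 10.9 ppm and detection in 16.0 to 20.7% of spots.

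The gamma genes include Cacng1 and Cacng6, of muscle, and a group whose proteins are best known as auxiliary subunits of AMPA-type glutamate receptors (TARPs). Cacng3 encodes a TARP of the cerebral cortex. It had 370.1 ppm in ATRA, 16.5 ppm in BMS753, 18.6 ppm in BMS961+BMS641 and 19.3 ppm in VitaminA. The lowest ATRA quadrant had 332.0 ppm and the highest quadrant of any other section 25.6 ppm. Cacng3 was detected in 91.4% of ATRA spots, 22.8% of BMS753 spots, 33.2% of BMS961+BMS641 spots and 27.9% of VitaminA spots. The other TARP genes did not share this pattern. Cacng2, the TARP that carries AMPA receptors to cerebellar synapses and is mutated in the stargazer mouse, had 72.4 ppm in ATRA, 95.4 ppm in BMS753, 86.9 ppm in BMS961+BMS641 and 97.6 ppm in VitaminA. Cacng4 had 31.7 ppm in ATRA, 52.5 ppm in BMS753, 21.3 ppm in BMS961+BMS641 and 35.7 ppm in VitaminA, and its BMS753 quadrants ran from 16.7 to 136.8 ppm, overlapping those of every other section. Cacng5 had 27.8 ppm in ATRA, 53.3 ppm in BMS753, 22.9 ppm in BMS961+BMS641 and 31.5 ppm in VitaminA. Cacng7 and Cacng8 lay between 3.69 and 11.6 ppm in all sections. The muscle genes were the least detected, Cacng1 with at most 3.94 ppm and 5.80% of spots and Cacng6 with at most 9.76 ppm and 5.43% of spots.

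The sodium channel pore genes of central neurons are Scn1a, Scn2a, Scn3a and Scn8a. Scn8a, the pore of the nodes of Ranvier and of the axon initial segment, had 144.0 ppm in ATRA, 276.8 ppm in BMS753, 140.9 ppm in BMS961+BMS641 and 181.4 ppm in VitaminA. Scn1a, the pore of fast-spiking interneurons, had 76.3 ppm in ATRA, 136.3 ppm in BMS753, 92.3 ppm in BMS961+BMS641 and 134.6 ppm in VitaminA. Scn2a, the early axonal pore of excitatory neurons, had 43.3 ppm in ATRA, 129.7 ppm in BMS753, 72.9 ppm in BMS961+BMS641 and 50.2 ppm in VitaminA. Scn3a, which in rodents is expressed mostly before birth, had 23.6 ppm in ATRA, 66.4 ppm in BMS753, 53.1 ppm in BMS961+BMS641 and 30.0 ppm in VitaminA. On this uncentred scale Scn2a and Scn3a shared an order, BMS753 above BMS961+BMS641, then VitaminA, then ATRA. After centring on the median gene, ATRA and VitaminA were nearly level for both. The log2 ratio of ATRA over VitaminA was 0.12 (range over quadrant pairs -0.54 to 0.77) for Scn2a and 0.002 (-0.57 to 0.51) for Scn3a. Scn3a was then highest in BMS961+BMS641. Both were detected in more spots in BMS961+BMS641 (Scn2a in 60.8% and Scn3a in 63.6%) than in BMS753 (50.3% and 51.0%). Their ATRA and VitaminA quadrant levels overlapped, and for Scn3a those of BMS753 and BMS961+BMS641 overlapped too.

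The pores of peripheral sensory neurons and of muscle were also detected. Scn10a, a pore of nociceptors, had 39.5 ppm in ATRA, 98.4 ppm in BMS753, 41.7 ppm in BMS961+BMS641 and 52.3 ppm in VitaminA. Scn11a, another nociceptor pore, had 16.1 ppm in ATRA, 35.8 ppm in BMS753, 32.1 ppm in BMS961+BMS641 and 22.9 ppm in VitaminA. Scn9a, a pore of sensory and sympathetic neurons, stayed between 29.2 and 41.6 ppm, and Scn7a, a sodium-sensing relative that is not opened by voltage, between 25.2 and 35.2 ppm. Scn4a, the skeletal muscle pore, had 36.0 ppm in ATRA, 65.7 ppm in BMS753, 27.2 ppm in BMS961+BMS641 and 52.3 ppm in VitaminA, but between 17.0 and 48.3% of this signal lay in the lowest class.

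The beta subunits of sodium channels are single-pass membrane proteins that also act in cell adhesion. Scn4b, the subunit linked to resurgent current, had 41.7 ppm in ATRA, 107.9 ppm in BMS753, 33.6 ppm in BMS961+BMS641 and 46.6 ppm in VitaminA, with 42.2 to 78.3% of its signal in the lowest class. It was detected in 29.4% of BMS753 spots and in 8.26 to 15.9% elsewhere. Scn3b was low in most sections, with 34.0 ppm in ATRA, 4.62 ppm in BMS753, 2.09 ppm in BMS961+BMS641 and 3.12 ppm in VitaminA. It was detected in 37.1% of ATRA spots and in 7.79 to 8.77% of those elsewhere.

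The upstream sequences of 2 genes are shown because their levels set a section apart: Cacna1e, high in ATRA, and Cacna1f, high in BMS961+BMS641. Each runs from 250 bases before to 50 bases after a transcription start in RefSeq (GRCm38.p6), 5′ to 3′ on the strand of the gene. Capitals mark the motif AGGTCA, the core element of nuclear receptors, read here on the opposite strand.
Cacna1e (chr1:154725871-154726170, minus strand): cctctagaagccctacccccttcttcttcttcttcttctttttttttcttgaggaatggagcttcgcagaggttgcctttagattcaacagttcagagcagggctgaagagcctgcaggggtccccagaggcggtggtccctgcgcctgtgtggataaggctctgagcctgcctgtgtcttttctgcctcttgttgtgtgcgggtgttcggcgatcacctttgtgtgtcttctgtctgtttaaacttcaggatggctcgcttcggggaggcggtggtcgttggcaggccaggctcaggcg
Cacna1f (chrX:7606853-7607152, plus strand): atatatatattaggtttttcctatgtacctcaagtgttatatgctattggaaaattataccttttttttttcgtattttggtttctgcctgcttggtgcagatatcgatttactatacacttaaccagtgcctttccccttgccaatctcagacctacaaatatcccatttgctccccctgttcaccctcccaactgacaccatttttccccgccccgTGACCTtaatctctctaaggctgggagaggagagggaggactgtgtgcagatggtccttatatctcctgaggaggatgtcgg
Retinoic acid receptors bind pairs of this element, often as direct repeats with a fixed spacing. The letters AGGTCA were searched on both strands of the 40 promoter windows available for 29 of the 37 genes. They occurred in 4 of the 40 windows (10%), at Cacna1f, Scn1a, Scn8a and Cacng8, against 16.3% of all 32851 promoter windows. A direct repeat of AGGTCA spaced by 5 or by 2 bases, which contains AGGTCA by construction, was in 0 of the 40 windows, and each spacing was in 3 of the 32851. A match is a run of letters and not a shown site, and its absence from these windows says nothing about sites elsewhere.

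Each pair of sections was then compared. The ratio of levels was taken on the log2 scale after adding 1 ppm, for genes that reached 5 ppm in one of the sections, and the median ratio of all compared genes was subtracted. A gene was counted as higher or lower past a fold of 2, which is 1 on this scale. With 1 section per group there is no test, and the spread given is the range over the 16 pairs of quadrants, which lies within the sections and does not measure the variation between organoids or cultures. The 3 comparisons given first share the VitaminA section.

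In ATRA against VitaminA, 7 of the 36 channel genes compared were higher and 2 lower past the fold of 2, beside 12.1% higher and 14.6% lower of the 14794 genes compared. All 9 also had every quadrant of one section above every quadrant of the other, which 10.8% of all genes did in the higher and 14.4% in the lower direction. The 7 higher genes are a larger share of the 36 than the background, and the 2 lower genes a smaller one. Cacng3 had the largest relative log2 ratio, 4.52 (range over quadrant pairs 4.03 to 5.26), followed by Scn3b at 3.42 (2.30 to 4.57). Cacna1e followed at 3.05 (2.83 to 3.29), Cacnb1 at 2.91 (2.51 to 3.34) and Cacna1g at 2.50 (2.28 to 2.89). Cacna1i was at 1.41 (1.22 to 1.65), and Cacnb4 lay just past the fold at 1.08 (0.74 to 1.44). The higher genes are thus a Cav2 pore, 2 Cav3 pores, 2 calcium channel beta subunits, a TARP and a sodium channel beta subunit, and no sodium channel pore gene was among them. Lower were Cacna2d1 at -1.84 (-2.21 to -1.41) and Cacna1s at -1.03 (-2.0 to -0.34). With the lowest class set to 0, Cacna1s was at -0.77 and no longer past the fold. The median of the 36 was 0.00, so the group as a whole stood at the level of the median gene.

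In BMS753 against VitaminA, 1 of 35 channel genes was higher and 0 lower, beside 9.06% higher and 14.8% lower of 15676 genes. It also had separate quadrants, as had 7.74% of all genes in the higher and 12.1% in the lower direction. This gene was Scn2a, at 1.04 (0.42 to 1.58), just past the fold, and at 0.91 without 1 of the BMS753 quadrants, while Cacna2d1 at -0.97 was just inside it. Scn4b was at 0.89, and at 1.50 with the lowest class at 0, and Scn3a was at 0.81 and then at 1.11. The 3 highest ratios were thus those of sodium channel genes, and no calcium channel gene was past the fold in either direction. The share of channel genes past the fold was below the background in both directions, and the median of the 35 was 0.02.

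In BMS961+BMS641 against VitaminA, 5 of 35 channel genes were higher and 1 lower, beside 13.6% higher and 14.3% lower of 14959 genes, so that the higher genes were close to their background share. All 6 had separate quadrants, as had 11.5% of all genes in the higher and 13.9% in the lower direction. Cacna1i was at 2.30 (2.09 to 2.67), Cacna1f at 1.98 (1.19 to 2.80) and Cacna2d4 at 1.53 (1.10 to 2.27). Cacna1b was at 1.22 (0.71 to 1.90) and Scn3a at 1.06 (0.52 to 1.78). Cacna2d1 was lower, at -1.36 (-1.72 to -1.01). With the lowest class at 0, Cacna1g (0.74 and then 1.01), Cacnb4 (0.83 and then 1.11) and Scn2a (0.79 and then 1.05) also lay past the fold in the higher direction, and Scn4a (-0.66 and then -1.03) in the lower. The median of the 35 was -0.07.

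**Figure D2:**
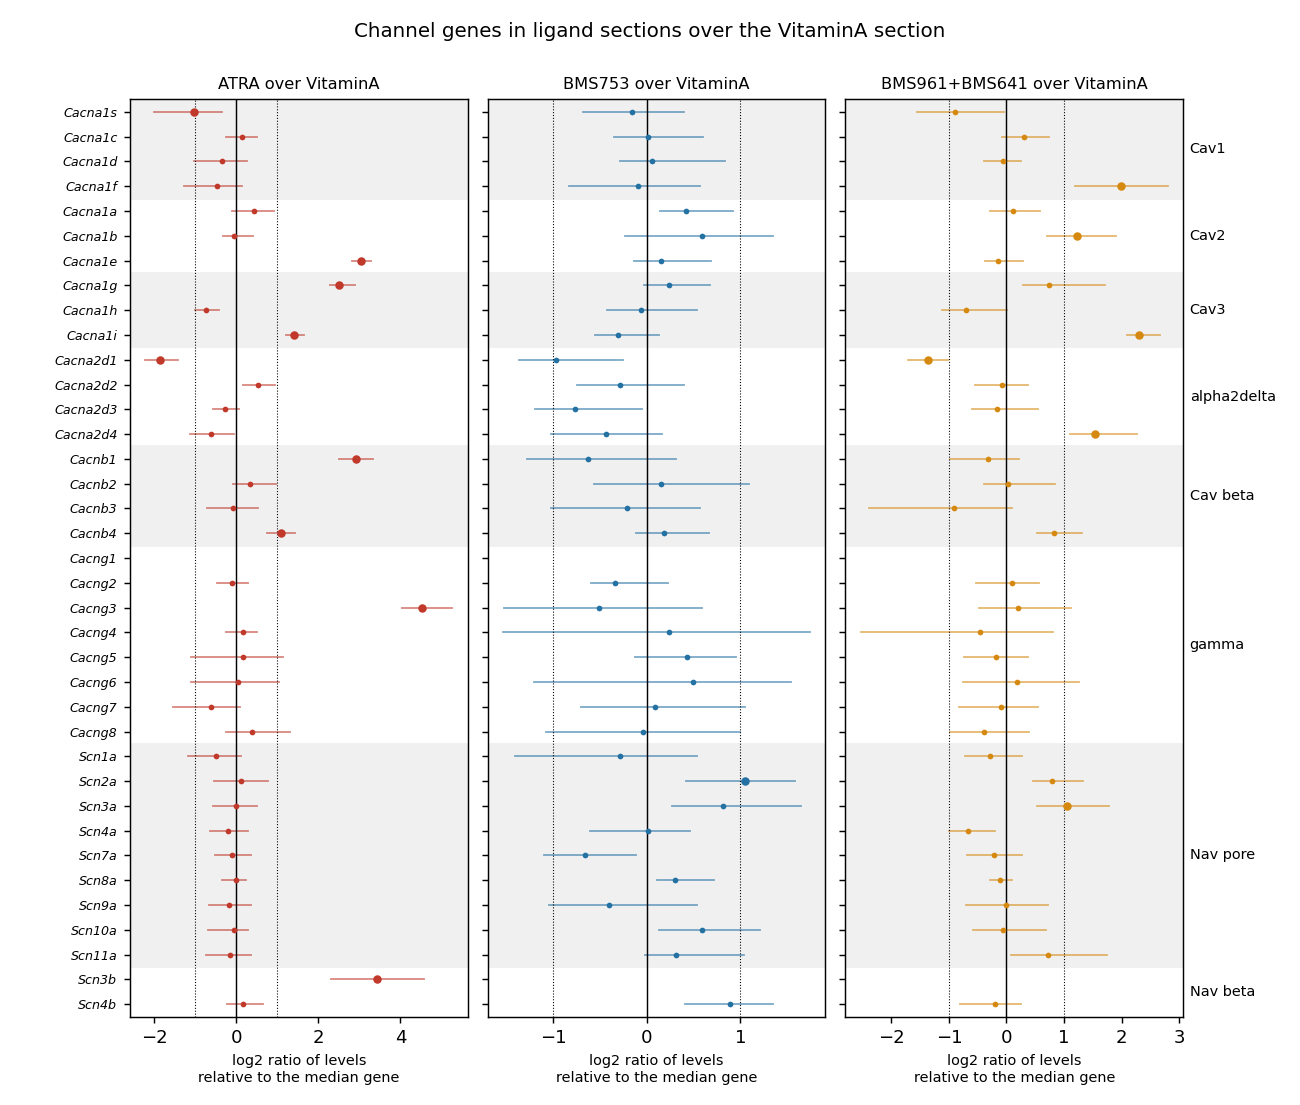
Relative log2 ratio of each channel gene for the 3 ligand sections against VitaminA, with the median of all genes compared at 0, dotted lines at a fold of 2, bars for the range over 16 pairs of quadrants and larger points for the genes named past the fold; the horizontal scale differs between panels, and genes below 5 ppm in both sections have no point. In ATRA a few calcium channel genes and Scn3b lie far to the right while most genes lie near 0, in BMS753 Scn2a is the one gene past the fold, and in BMS961+BMS641 Cacna1i, Cacna1f, Cacna2d4, Cacna1b and Scn3a lie past it on the right and Cacna2d1 on the left.

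Of the 4 alpha2delta genes, Cacna2d1 was below VitaminA in all 3 ligand sections, with ratios of -1.84 (ATRA), -0.97 (BMS753) and -1.36 (BMS961+BMS641), and all 3 values use the same VitaminA section. Cacna2d3 was also below the median gene in all 3, with ratios of -0.26 (ATRA), -0.76 (BMS753) and -0.16 (BMS961+BMS641), within the fold. With the lowest class at 0 those of Cacna2d3 were 0.03 (ATRA), -0.47 (BMS753) and 0.12 (BMS961+BMS641), so that 2 of the 3 turned. For the sums by role, the calcium channel pores of the Cav2 family held 777.9 ppm in ATRA, 357.7 ppm in BMS753, 217.3 ppm in BMS961+BMS641 and 228.9 ppm in VitaminA. The Cav3 pores held 766.5 ppm in ATRA, 395.9 ppm in BMS753, 870.0 ppm in BMS961+BMS641 and 342.4 ppm in VitaminA. The 9 sodium channel pores held 433.8 ppm in ATRA, 875.1 ppm in BMS753, 519.8 ppm in BMS961+BMS641 and 600.4 ppm in VitaminA. In these uncentred sums the Cav2 pores were thus highest in ATRA, the Cav3 pores in BMS961+BMS641 and the sodium channel pores in BMS753. After centring on the median gene, the median log2 ratio of the 9 sodium channel pores in BMS753 was small. It was 0.30 over VitaminA, 0.22 over ATRA and -0.08 over BMS961+BMS641. Single genes carried the calcium channel sums, Cacna1e with 644.4 ppm of the Cav2 sum in ATRA and Cacna1i with 712.4 ppm of the Cav3 sum in BMS961+BMS641, and the other two Cav2 pores were not highest in ATRA.

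**Figure D3:**
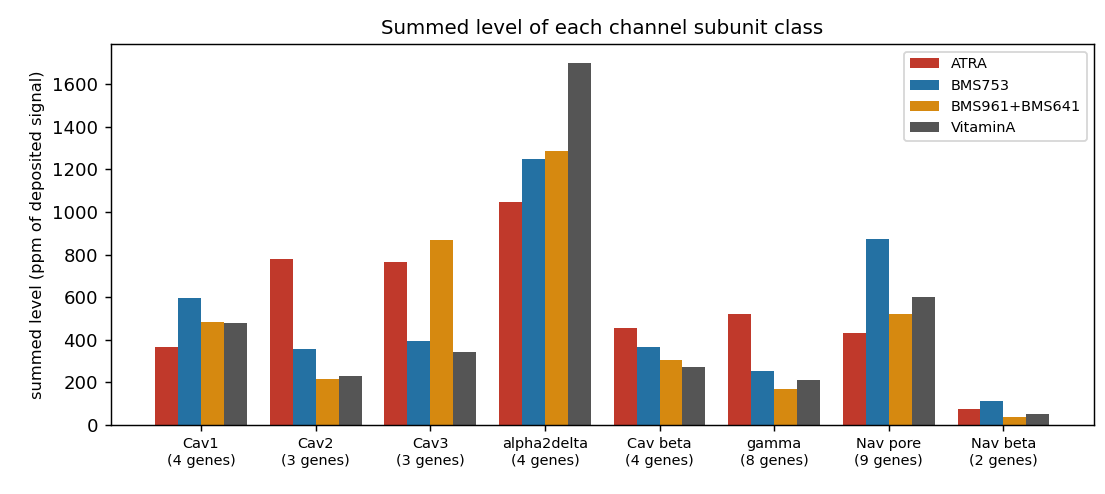
Summed level of the channel genes of each role, in ppm of the section's signal, for ATRA, BMS753, BMS961+BMS641 and VitaminA. The sums are not centred on the median gene. On this scale the Cav2 sum is highest in ATRA and the Cav3 sum in ATRA and BMS961+BMS641. The alpha2delta sum is highest in VitaminA and both sodium channel sums in BMS753.

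Pairs of ligand sections gave the following ratios. In BMS753 against ATRA, 0 of 36 were higher and 6 lower, beside 6.77% higher and 14.6% lower of 14902 genes (6.57% and 9.27% with separate quadrants, as all 6 had). Cacng3 was at -5.12, Cacnb1 at -3.62, Scn3b at -3.35, Cacna1e at -2.97, Cacna1g at -2.35 and Cacna1i at -1.80. With the lowest class at 0, Scn4b (0.64 and then 2.04) and, just past it, Scn2a crossed the fold in the higher direction. In BMS961+BMS641 against ATRA, 4 of 35 were higher and 5 lower, beside 14.9% higher and 12.3% lower of 13732 genes (13.8% and 11.3% with separate quadrants, as all 9 had). The higher ones were Cacna1f at 2.47, Cacna2d4 at 2.18, Cacna1b at 1.31 and Scn3a at 1.09. The lower ones were Cacng3 at -4.29, Scn3b at -3.54, Cacnb1 at -3.20, Cacna1e at -3.15 and Cacna1g at -1.73. In BMS753 against BMS961+BMS641, 1 of 35 was higher and 3 lower, beside 6.41% higher and 15.7% lower of 14973 genes (6.12% and 10.5% with separate quadrants, as all 4 had). Scn4b was at 1.01, and at 0.90 without 1 of the BMS961+BMS641 quadrants but at 2.39 with the lowest class at 0, and the lower ones were Cacna1i at -2.69, Cacna1f at -2.16 and Cacna2d4 at -2.05. ATRA and BMS753 were both given at 1 µM, and the BMS961+BMS641 pair at 0.1 µM.

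Counted over the 36 channel genes that reached 5 ppm in a section, 5 were higher in ATRA than in each of the other 3 sections by at least 2-fold, beside 6.87% of 15841 genes. They were Cacng3, Scn3b, Cacnb1, Cacna1e and Cacna1g. The count was 0 in BMS753 (beside 2.70% of all genes), 2 in BMS961+BMS641 (Cacna1f and Cacna2d4, beside 7.08%) and 0 in VitaminA (beside 6.88%). Most channel genes varied little. The range over the 4 sections, after centring, had a median of 0.80 on the log2 scale for the 36 genes and 1.10 for all genes. It was under 1 for 21 of the 36 genes (58.3%), against 44.7% of all genes.

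Of the 5 genes higher in ATRA than in each other section, Cacng3, Cacna1e and Cacna1g were each detected in at least 91.2% of ATRA spots, Cacnb1 in 66.3% and Scn3b in 37.1% (see the maps of the spots for Cacng3). Moran's I, which is 1 where neighbouring spots carry the same value and near 0 where they are unrelated, was 0.203 for Cacng3 in ATRA on the log2 signal. It was 0.068 once the factor of each spot was divided out. The median Moran's I over the 37 genes was 0.096 in ATRA, 0.051 in BMS753, 0.093 in BMS961+BMS641 and 0.046 in VitaminA. Over all genes the median was 0.045 in ATRA, 0.038 in BMS753, 0.064 in BMS961+BMS641 and 0.021 in VitaminA. The 90th percentile over all genes was 0.326 in ATRA and 0.235 to 0.468 over the sections. With the spot factor divided out and the lowest class at 0, the median over the 37 genes was 0.034 in ATRA, 0.043 in BMS753, 0.018 in BMS961+BMS641 and 0.027 in VitaminA. Over all genes it was then 0.003 to 0.009, with a 90th percentile of 0.045 to 0.070. The gene with the highest value after both steps was Cacna2d3 in VitaminA, at 0.170. Scn4b, the highest before these steps in ATRA, at 0.326, was at 0.009 after them.

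**Figure D4:**
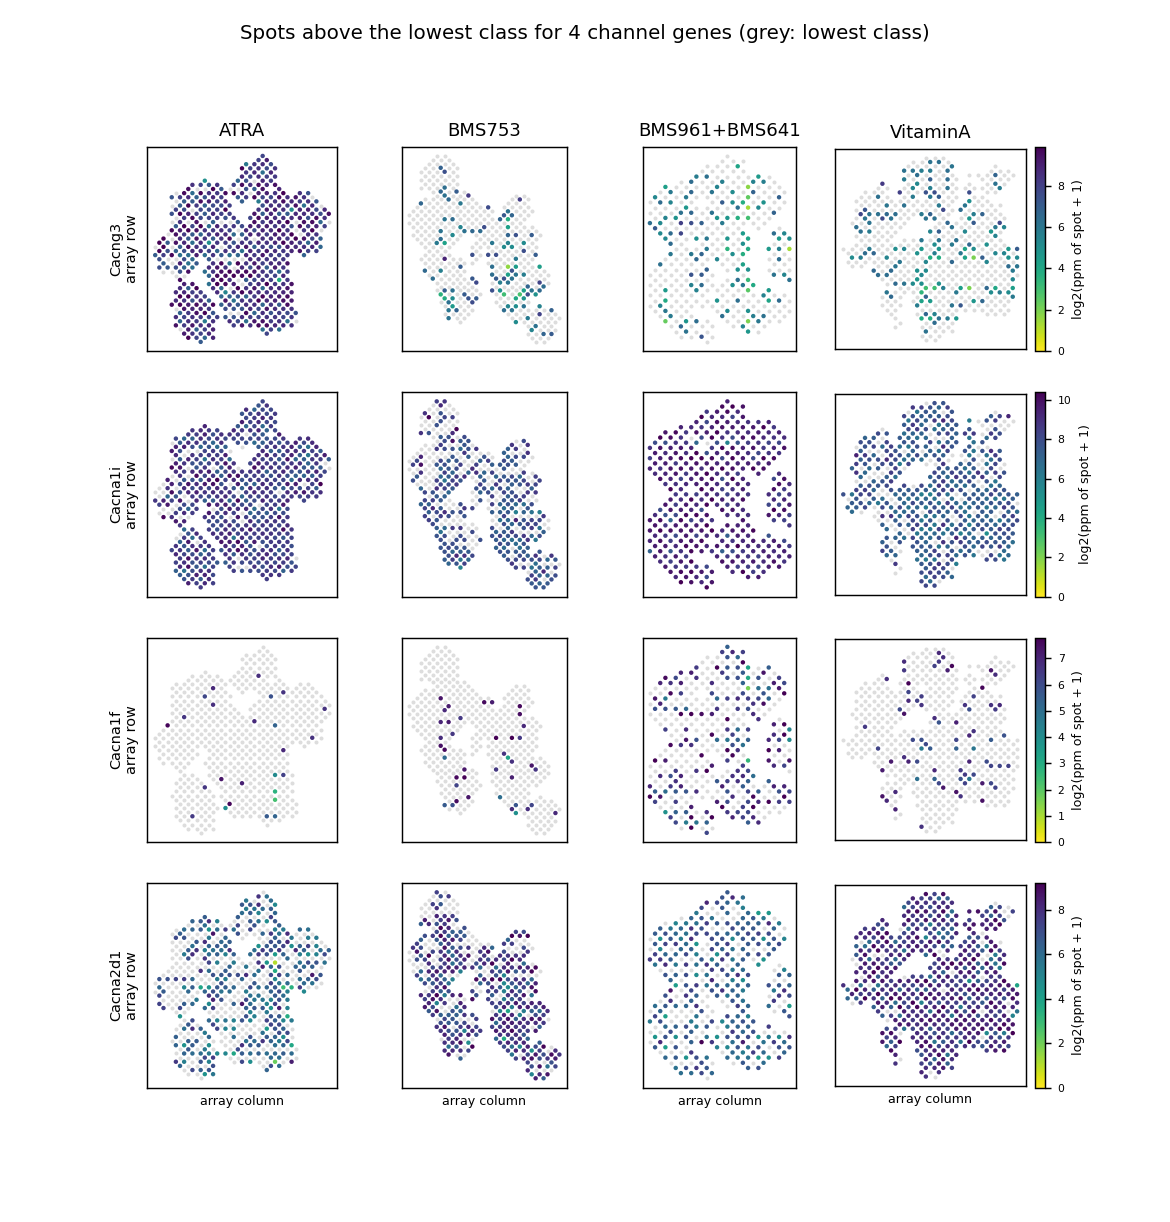
Signal of Cacng3, Cacna1i, Cacna1f and Cacna2d1 in every spot of the 4 sections, drawn by array column and row, as log2 of the ppm of the spot's sum plus 1, with spots in the lowest class in grey. Cacng3 covers the ATRA section. Cacna1i covers the ATRA and BMS961+BMS641 sections most fully, and was also detected in 62.0% of BMS753 and 80.8% of VitaminA spots. Cacna2d1 covers the VitaminA section most fully, and was detected in 54.6 to 74.0% of spots elsewhere. Cacna1f is scattered over the BMS961+BMS641 section and is in the lowest class in most spots of the others.

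Spots with the parts of a high-voltage calcium channel were common. At least 1 Cav1 or Cav2 pore gene, 1 alpha2delta gene and 1 beta gene were detected together in 95.6% of spots in ATRA, 93.0% in BMS753, 96.7% in BMS961+BMS641 and 95.8% in VitaminA. Each of these kinds alone was detected in 93.2 to 100% of spots, so a high joint share follows from these shares. A spot may also cover several cells, so genes detected together need not share a cell. A sodium channel pore gene and a beta gene were detected together in 41.0% of spots in ATRA, 34.1% in BMS753, 17.3% in BMS961+BMS641 and 22.5% in VitaminA. The sodium channel beta genes described here are Scn3b and Scn4b only, so these shares do not tell which spots lack any beta subunit. Scn3b was detected in 37.1% of ATRA spots and Scn4b in 29.4% of BMS753 spots. The pore genes were detected in 94.8 to 98.7% of spots, so the sodium channel shares follow the beta genes, which were detected in 41.5% of spots in ATRA, 34.3% in BMS753, 17.5% in BMS961+BMS641 and 22.5% in VitaminA. The median number of channel genes detected per spot was 17 in ATRA, 16 in BMS753, 20 in BMS961+BMS641 and 19 in VitaminA. This number moved with how many genes a spot held in all, with a Pearson correlation over spots of 0.901 in ATRA, 0.920 in BMS753, 0.906 in BMS961+BMS641 and 0.856 in VitaminA, where the points share the library and its depth.

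Many of these genes are long. Their median span was 110.9 kb, against 17.6 kb over the genes matched to the annotation, and 26 of the 37 lay in the fifth of genes with the longest span. Detection rose with span among all genes, when the genes were cut into 10 equal bins of span: the median gene was detected in 0.34% of ATRA spots in the shortest bin and 56.3% in the longest, and in 0.36% and 70.8% of VitaminA spots. Over the 37 channel genes the Spearman correlation of span and detection was 0.712 in ATRA, 0.855 in BMS753, 0.833 in BMS961+BMS641 and 0.864 in VitaminA. Set against the median of their bin of span, 21 of the 37 were detected in more spots in ATRA, 23 in BMS753, 20 in BMS961+BMS641 and 22 in VitaminA. Below it lay 16, 14, 17 and 15 in the same order. A median leaves about as many genes of a bin above it as below, so these counts lie near an even split. The longest bin held 20 of the 37 genes, with spans of up to 817.8 kb. Cacng3, in a bin whose median gene was detected in 27.3% of ATRA spots, reached 91.4% there. Cacnb1, with a span of 21.5 kb, reached 66.3% where the median of its bin was 7.93%. It was also above that median in BMS753 (21.5% against 9.17%), BMS961+BMS641 (32.6% against 11.8%) and VitaminA (30.6% against 12.1%). Cacna1f reached 50.1% in BMS961+BMS641 where the median of its bin was 16.2%. On a scale of ppm per 100 kb of span, Cacnb1 had 547.7 and Cacna1g 544.3 in ATRA, Scn4b had 694.9 in BMS753 and Cacna1i had 641.5 in BMS961+BMS641.

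**Figure D5:**
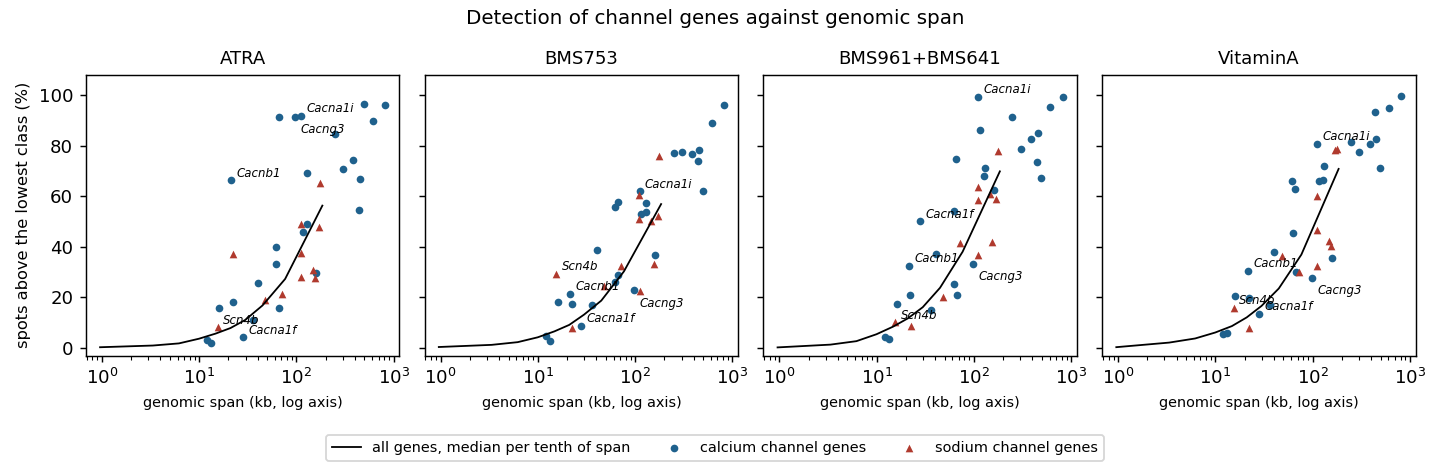
Percent of spots in which each channel gene was detected against its genomic span in kb (logarithmic axis), one panel per section, with the black line joining the median of all genes in each of 10 bins of span. The channel genes broadly follow the line. Among those above it are Cacng3, Cacnb1, Cacna1g, Cacna1e, Cacna1i and Scn3b in ATRA. Scn4b lies above it in BMS753, and Cacna1f and Cacna1i in BMS961+BMS641. Cacnb1 and Cacna1g lie above the line in the other sections too.

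Genes whose products bind, anchor or regulate these channels were counted in the same way, from a list of 38 that were listed in all 4 sections. In ATRA against VitaminA, 5 of 36 were higher and 6 lower, near the 12.1% and 14.6% of all genes. Rrad, a small GTPase that binds calcium channel beta subunits and inhibits the channel, was at 4.05, with 533.9 ppm and detection in 91.7% of spots in ATRA, against 39.7 ppm and 4.71% in VitaminA. Nedd4l, a ubiquitin ligase that removes sodium channels from the membrane, was at 1.72. Stac, an adaptor of L-type channels, was at -1.66 and Ank2, an ankyrin that anchors membrane proteins, at -1.34. In BMS753 against VitaminA, 1 of 36 was higher and 6 lower, beside 9.06% and 14.8% of all genes. Among the lower ones were Fgf12, which binds the tail of sodium channel pores, at -2.08, and Stac at -1.79. In BMS961+BMS641 against VitaminA, 5 of 35 were higher and 5 lower, near the 13.6% and 14.3% of all genes. Unc79 and Unc80, subunits of the sodium leak channel complex, were at 1.78 and 1.60, Fgf13 at 1.29, Stac at -1.77 and Ank2 at -1.46. Ank2 was at -1.03 in BMS753 against VitaminA. Stac, Ank2, Sptbn4, Catsper3 and Gem were lower past the fold in all 3 comparisons, which share the VitaminA section. Of all 15841 genes counted over the sections, 6.88% were at least 2-fold higher in VitaminA than in each other section. Sptbn4, a spectrin of the axon initial segment, was at -1.07 (ATRA), -1.41 (BMS753) and -1.04 (BMS961+BMS641). Catsper3, a calcium channel pore of sperm, was at -1.25, -1.31 and -1.58 in the same order, and Gem, a GTPase related to Rrad, at -2.66, -1.86 and -3.27, with at most 11.8 ppm in a section.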

How the data were processed

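The spatial libraries were made from cryosections on printed barcoded poly-T arrays, per the labels' protocols, and the submitters' processing notes name mm9 as the build. No aligner or counting step is named in the sources used here. The authors deposited a quantile-normalised signal for each gene in each spot; within a section, any 2 spots hold the same sorted values up to a factor. Levels, centred log2 ratios and quadrant ranges were computed with Python 3.11.15, numpy 2.4.6, pandas 2.3.3 and scipy 1.17.1. The pseudocount was 1 ppm and the filter 5 ppm in either section. With 1 section per group no test was made. Of the 39 genes that met the rule, 2 are not reported here, and no count, sum or median of channel genes includes them. Members were named in a comparison where they had at least 20 ppm and detection in 5% of spots in a section, passed the fold of 2 and had separate quadrants. The calculation was tested on simulated data. The channel genes, partner genes and marker lists were chosen with earlier results of these data known. Spans, gene order and promoter sequences came from RefSeq (GRCm38.p6). Moran's I used 8 neighbours.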

Additional observations from a re-analysis of the deposited data

How the results depend on the processing

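No paired analysis was possible because each group has 1 section. The 35 relative ratios of named channel genes kept their direction under all alternatives run, but not always their side of the fold. Counts below are higher and lower channel genes, then the median log2 ratio; what is not given moved less. In ATRA over VitaminA, setting the lowest class to 0 left 1 lower with a median of 0.23, the tie class index gave a median of 0.22, and scaling spots to the same sum, a pseudocount of 5 ppm or centring within bins of span left 1 lower. By percent of spots it was 4 higher, 0 lower and 0.20. In BMS753 over VitaminA, the lowest class at 0 gave 3 higher and 0.33, the tie class index 2 higher and 0.29, centring within bins of span 2 higher, and a filter of 20 ppm 0 higher and 1 lower. In BMS961+BMS641 over VitaminA, the lowest class at 0 gave 8 higher, 2 lower and 0.20, the tie class index 2 lower and 0.16, and percent of spots 1 higher, 0 lower and 0.11. In BMS753 over ATRA, the lowest class at 0 gave 2 higher, the tie class index, scaling to the same sum and centring within bins of span 1 higher, and percent of spots 1 higher and 3 lower. In BMS961+BMS641 over ATRA, percent of spots gave 1 higher and 3 lower. In BMS753 over BMS961+BMS641, the tie class index gave 2 higher, scaling to the same sum, the 20 ppm filter and centring within bins of span 0 higher, and percent of spots 1 lower.

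Without centring, chosen after seeing the data, the median was -0.33 in ATRA over VitaminA. There Cacnb4, at 0.75, was no longer past the fold, and Cacna1h, at -1.07, was past it in the lower direction. The other comparisons changed as follows. The median was 0.32 with 3 higher in BMS753 over VitaminA, and -0.32 with 3 higher and 3 lower in BMS961+BMS641 over VitaminA. It was 0.77 with 12 higher in BMS753 over ATRA, and 0.68 with 8 higher in BMS753 over BMS961+BMS641. The median of all genes compared lay at -0.33, 0.31, -0.25, 0.71 and 0.64 in these comparisons. The cause of these changes was not tested, apart from what the settings themselves fix.

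Leaving out 1 quadrant at a time gave 6 to 7 higher and 1 to 2 lower in ATRA over VitaminA (median -0.06 to 0.02). It gave 0 to 1 higher and 0 to 1 lower in BMS753 over VitaminA (-0.02 to 0.06), and 4 to 5 higher and 1 to 3 lower in BMS961+BMS641 over VitaminA (-0.10 to 0.04). It gave 0 to 2 higher and 6 to 8 lower in BMS753 over ATRA (-0.08 to 0.08). It gave 3 to 5 higher and 5 to 6 lower in BMS961+BMS641 over ATRA (-0.09 to 0.17), and 0 to 2 higher and 3 to 3 lower in BMS753 over BMS961+BMS641 (-0.06 to 0.05). With 1 section per group, no value here separates a ligand from an organoid, a culture or a library, and the unknown depth limits what genes of low detection can show.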

Other observations

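The nearest protein-coding genes that reached 5 ppm in a section, on either side of the 7 channel genes that were at least 2-fold higher in 1 section did not share their gap, which is the distance of the centred log2 level in that section above the highest of the other 3 sections. Cacng3 stood 4.37 on the log2 scale above the next section in ATRA, while its neighbours Prkcb and Rbbp6 were at 0.05 and -0.84 for the same gap. Cacna1e stood at 2.86, with Zfp648 at -0.04 and Mr1 at -1.47, and Cacnb1 at 2.93, with Arl5c at -0.35 and Stac2 at -0.72. Cacna1g stood at 1.82, with Abcc3 at 0.12, the highest of the 14 neighbours, and Spata20 at -0.56. In BMS961+BMS641, Cacna1f stood at 1.95, while Syp, a synaptic vesicle gene beside it, was at -4.04. Of all 15841 genes counted, 6.87% had a gap of at least 1 in ATRA and 7.08% in BMS961+BMS641. Few of the neighbours would therefore reach such a gap in any case. Gene order was taken from GRCm38.p6.

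Within sections, the mean z score of the log2 signal over the channel genes and that over the pan-neuronal markers were correlated over spots, with a Pearson correlation of 0.739 in ATRA, 0.686 in BMS753, 0.818 in BMS961+BMS641 and 0.634 in VitaminA. After the spot factor was divided out and the lowest class set to 0 it was 0.501 in ATRA, 0.628 in BMS753, 0.599 in BMS961+BMS641 and 0.471 in VitaminA. With the spot factor alone divided out it was 0.249 in ATRA, 0.396 in BMS753, 0.313 in BMS961+BMS641 and 0.343 in VitaminA. The astroglia marker score was also correlated with the channel score, at 0.494 in ATRA, 0.454 in BMS753, 0.533 in BMS961+BMS641 and 0.397 in VitaminA, and after both steps at 0.299, 0.433, 0.394 and 0.290 in the same order. The spots of a section share a library, and after both steps the channel score was itself correlated with the number of genes detected in the spot, at 0.778 in ATRA, 0.854 in BMS753, 0.826 in BMS961+BMS641 and 0.755 in VitaminA.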
